A study of Homo sapiens with 38 samples.

Results

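The 3196 regions described here are places in stimulated Jurkat cells where GATA3 and BHLHE40 were listed together and the histone mark H3K27ac was not. They were chosen from the authors' 3 lists of enriched regions: a GATA3 region was taken when it overlapped a BHLHE40 region by at least 1 bp and overlapped no H3K27ac region. The GATA3 list held 29009 regions, so the members made up 11.0% of it. They made up 22.6% of the 14123 GATA3 regions that overlapped BHLHE40, and the remaining 10927 of those carried H3K27ac. The choice used the positions of regions in all 3 lists, so overlap, absence of H3K27ac and the signal values of these lists are given as descriptions without a test.

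Jurkat is an established human T-cell acute lymphoblastic leukaemia line. All cells used here carried the control lentivirus Ctrl_LV and had been stimulated by 50 ng/ml PMA together with 500 ng/ml ionomycin. The sample labels give 5 hours of stimulation, whereas the treatment protocol gives 2 hours. Chromatin immunoprecipitation with sequencing was represented by 3 of the 19 groups of 2 samples (38 samples in all), for GATA3, BHLHE40 and H3K27ac, and the other 16 groups were not analysed here. A list summarises the 2 samples of a group with no per-sample values, so replicate spread is not available here, and sample depth is unknown. The labelled cell type was checked at marker genes: a strong H3K27ac region, taken here as one with a −log10 q of at least 5, lay at an end of 7 of 7 T-cell genes, from CD3D to BCL11B, and of 0 of 5 B-cell and 0 of 5 myeloid genes.

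GATA3 is a zinc-finger factor that binds GATA-containing DNA and directs T-cell development and the T helper 2 programme. BHLHE40 is a basic helix-loop-helix factor that binds E-boxes, is induced when T cells are activated and mostly acts as a repressor in the circadian and cytokine systems. H3K27ac is laid down by the acetyltransferases EP300 and CREBBP and marks active promoters and enhancers, whereas many sites bound by a factor carry little of it.

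Sequence was read only where a member overlapped a RefSeq promoter window (GRCh38.p14), which spans 250 bases before to 50 bases after a gene's start. Of the 3196 members, 79 overlapped such a window, at 101 windows of 89 gene symbols. The first 4 stretches belong to the protein-coding promoters with the highest GATA3 signal whose summit fell in the bases before the start and whose H3K27ac was farther than 1 kb. They are MYORG (a glycosidase-family protein, chr9:34376899-34377148, minus strand), CPOX (coproporphyrinogen oxidase of haem synthesis, chr3:98593612-98593861, minus), ZSCAN23 (a zinc-finger protein, chr6:28443492-28443741, minus) and FTCDNL1 (chr2:199851193-199851442, minus). Each is shown 5′ to 3′ for the 250 bases before the start, and capitals mark the GATA motif (AGATAA, or the form TGATAA) and 3 E-boxes, which are CACGTG in its palindromic form, then the form CAGCTG, then the form CAGATG, on either strand.
MYORG: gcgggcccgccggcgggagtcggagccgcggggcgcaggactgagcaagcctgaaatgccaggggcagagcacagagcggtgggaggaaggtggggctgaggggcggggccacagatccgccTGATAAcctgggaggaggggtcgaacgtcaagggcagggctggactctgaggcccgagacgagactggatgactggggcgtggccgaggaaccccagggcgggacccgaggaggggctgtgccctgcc
CPOX: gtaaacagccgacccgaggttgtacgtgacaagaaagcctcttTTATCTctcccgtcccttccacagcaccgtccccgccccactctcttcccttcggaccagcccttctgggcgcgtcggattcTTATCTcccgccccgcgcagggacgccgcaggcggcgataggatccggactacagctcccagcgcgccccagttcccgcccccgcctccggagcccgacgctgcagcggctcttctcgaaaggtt
ZSCAN23: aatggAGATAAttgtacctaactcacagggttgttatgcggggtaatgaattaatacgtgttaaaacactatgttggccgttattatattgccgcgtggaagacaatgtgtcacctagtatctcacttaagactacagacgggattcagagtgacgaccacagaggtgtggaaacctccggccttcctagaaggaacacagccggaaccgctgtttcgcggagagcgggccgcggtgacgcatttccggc
FTCDNL1: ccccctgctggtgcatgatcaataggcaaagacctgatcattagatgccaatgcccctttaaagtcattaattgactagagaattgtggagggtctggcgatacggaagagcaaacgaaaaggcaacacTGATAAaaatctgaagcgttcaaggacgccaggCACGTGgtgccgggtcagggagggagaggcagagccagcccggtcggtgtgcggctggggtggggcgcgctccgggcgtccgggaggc

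The summit of the MYORG member lay at base 116 of its stretch and 7 bases from the start of the GATA motif at base 123. In CPOX the summit was at base 110 and the nearer of 2 GATA motifs, at base 126, was 16 bases away. In FTCDNL1 the summit at base 105 had a GATA motif 25 bases and a CACGTG E-box 58 bases away. In ZSCAN23 the motif shown, at base 6, was 226 bases from the summit at base 232, but another began at base 260, past the printed stretch and 28 bases from the summit.

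The next pair is shown because both genes belong to immune cells, a choice made after their values were seen. IL3 (chr5:132060405-132060654, plus) encodes a haematopoietic cytokine made by activated T cells, and IL18RAP (chr2:102418371-102418620, plus) encodes the accessory chain of the interleukin-18 receptor.
IL3: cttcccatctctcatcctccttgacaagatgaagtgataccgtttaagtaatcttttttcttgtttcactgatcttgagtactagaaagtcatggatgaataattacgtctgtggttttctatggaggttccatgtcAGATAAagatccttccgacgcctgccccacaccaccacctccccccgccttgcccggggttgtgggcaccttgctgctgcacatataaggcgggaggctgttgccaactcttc
IL18RAP: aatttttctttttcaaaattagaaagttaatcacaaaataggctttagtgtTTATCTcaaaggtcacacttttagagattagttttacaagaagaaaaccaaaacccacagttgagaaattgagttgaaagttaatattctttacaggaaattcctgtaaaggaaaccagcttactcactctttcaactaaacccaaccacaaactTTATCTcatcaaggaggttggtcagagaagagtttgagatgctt

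In IL18RAP the GATA3 summit fell on the first base of a GATA motif at base 207, and another motif began at base 52. In IL3 the motif at base 138 was 59 bases from the summit. The GATA3 and BHLHE40 summits were 3 bp apart at IL3 and 4 bp apart at IL18RAP. GATA3 signal, the authors' enrichment value per region, was 26.0 at IL3 and 21.4 at IL18RAP, both above the median of all GATA3 regions (11.2).

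The last pair shows the opposite end, the promoters whose summit fell before the start and whose H3K27ac was nearest. MCF2L (chr13:112969310-112969559, plus) encodes a guanine nucleotide exchange factor and CUL5 (chr11:108008648-108008897, plus) a scaffold of ubiquitin ligases. H3K27ac began 10 bp from the MCF2L member and 14 bp from the CUL5 member.
MCF2L: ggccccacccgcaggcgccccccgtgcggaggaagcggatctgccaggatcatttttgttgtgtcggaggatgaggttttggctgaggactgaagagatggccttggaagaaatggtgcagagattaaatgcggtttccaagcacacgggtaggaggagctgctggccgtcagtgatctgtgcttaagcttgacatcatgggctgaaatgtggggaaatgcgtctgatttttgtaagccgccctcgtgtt
CUL5: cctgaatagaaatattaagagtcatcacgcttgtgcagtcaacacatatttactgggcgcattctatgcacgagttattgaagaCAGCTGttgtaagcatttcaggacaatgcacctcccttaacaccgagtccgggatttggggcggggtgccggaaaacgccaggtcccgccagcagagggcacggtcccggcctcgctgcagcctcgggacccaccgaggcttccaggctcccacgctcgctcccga

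Neither stretch nor the 50 bases after it held a GATA motif. The CUL5 stretch held a CAGCTG E-box 48 bases from the GATA3 summit. With the 50 bases after the start included, E-boxes numbered 1 at MCF2L and 2 at CUL5. GATA3 signal was 11.3 at MCF2L and 2.16 at CUL5, which ranked 28982 of 29009 GATA3 regions. The BHLHE40 signal at CUL5 was 12.0, above the median of 8.95 for the partners of all members. The factor summits lay 291 bp apart at MCF2L and 261 bp apart at CUL5.

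Over all promoter windows overlapped by members, the GATA motif was more frequent where H3K27ac was farther away. A GATA motif was present in 31 of 101 windows (30.7%, 95% Wilson interval 22.5% to 40.3%), in 10.8% of the 4508 windows overlapped by shared regions with H3K27ac, in 38.6% of the 114 windows of GATA3 regions with neither BHLHE40 nor H3K27ac, and in 16.3% of all 34943 windows. Wilson intervals cover counting only, and windows of 1 gene can overlap each other. Among members with H3K27ac within 1 kb the motif was in 8 of 50 windows (16.0%, interval 8.34% to 28.5%), near the share in all windows. Among members with H3K27ac farther away it was in 23 of 51 (45.1%, interval 32.3% to 58.6%). Base composition moved with this split and its part in the result was not tested: the median count of CpG in 300 bases was 29.5 in the first set and 12 in the second. GATA3 signal also differed, with a median of 7.96 over the 35 members with H3K27ac within 1 kb and 11.8 over the 44 others.

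E-boxes showed no such rise. They were in 15 of 50 member windows with H3K27ac within 1 kb (30.0%, interval 19.1% to 43.8%). With H3K27ac farther away they were in 12 of 51 (23.5%, interval 14.0% to 36.8%). At least 1 of the 3 E-boxes was in 27 of 101 member windows (26.7%, interval 19.1% to 36.1%), in 30.9% of windows of shared regions with H3K27ac and in 35.0% of all windows. CACGTG, the form BHLHE40 is best known to bind, was in 4 of 101 member windows (3.96%, interval 1.55% to 9.74%), in 10.9% of the windows with H3K27ac and in 7.23% of all windows. The ETS motif CCGGAA, common in CpG-rich promoters, was in 15.8% of member windows, 38.2% of windows with H3K27ac and 17.2% of all windows. The RUNX motif TGTGGT was in 17.8% of member windows against 11.2% with H3K27ac and 13.1% of all windows. By distance it was in 12.0% of member windows with H3K27ac within 1 kb (interval 5.62% to 23.8%). It was in 23.5% of those with H3K27ac farther away (interval 14.0% to 36.8%). All motifs were searched on both strands. A match is a description of the letters and not a bound site.

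**Figure D1:**
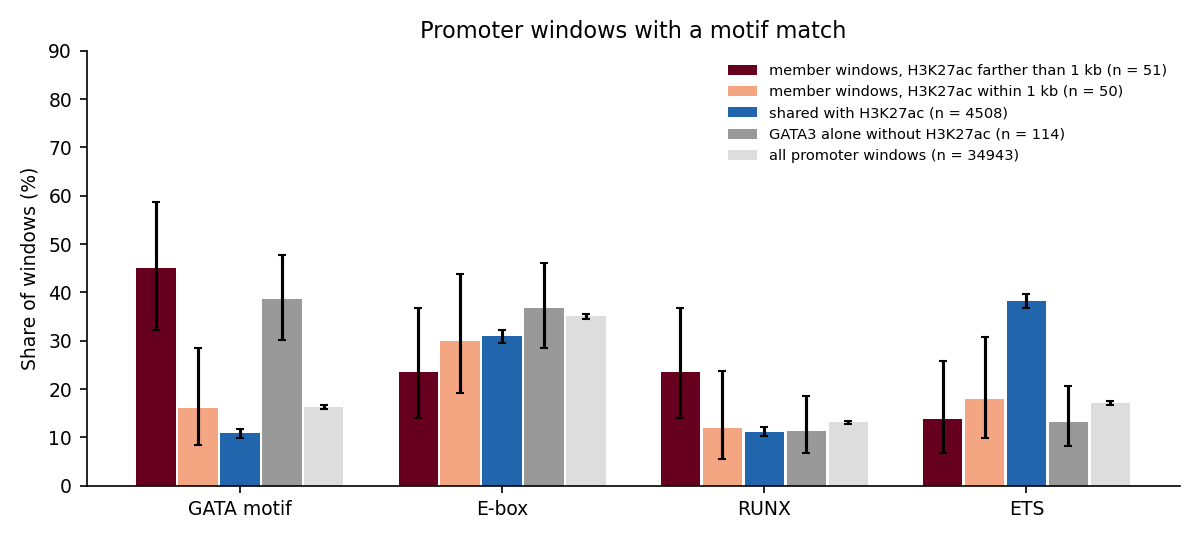
Share of 300-base promoter windows (y axis, percent) with a match to each motif (x axis), with 95% Wilson intervals as error bars. The GATA motif was in 45.1% of member windows with H3K27ac farther than 1 kb and in 16.0% of those with H3K27ac within 1 kb, and the ETS bar is tallest, at 38.2%, for shared regions with H3K27ac.

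The members were stronger than most GATA3 regions. Their median GATA3 signal was 16.3 (quartiles 10.3 and 27.9, range 1.82 to 234), against 13.0 for shared regions with H3K27ac, 10.1 for GATA3 regions with neither, and 11.2 for all GATA3 regions. The median member stood at percentile 69.9 of the GATA3 list. Of the 3196 members, 541 (16.9%) were in the top 10% of the list by GATA3 signal and 168 (5.26%) in the bottom 10%, against 19.0% and 11.3% of shared regions with H3K27ac. With the list cut into 10 equal bins by signal (deciles), members went from 5.79% of decile 1, the weakest, to 20.4% of decile 9 and 18.6% of decile 10. In this direction the medians differed most at gene boundaries, taken here as within 1 kb of an end of a gene record, where they were 12.3 for members and 9.32 for shared regions with H3K27ac. Away from boundaries they were 16.7 and 16.5 inside gene records, and 16.7 and 17.6 outside them. Boundary regions made up 35.2% of the shared regions with H3K27ac and 10.2% of the members.

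The BHLHE40 regions they overlapped were of middling strength. Their median BHLHE40 signal was 8.95 (quartiles 6.69 and 12.7), at percentile 46.7 of the BHLHE40 list, against 12.6 and percentile 69.0 for shared regions with H3K27ac. GATA3 ranked higher in its list than BHLHE40 in its own at 69.8% of members (interval 68.2% to 71.4%) and at 42.3% of shared regions with H3K27ac (interval 41.3% to 43.2%). Among shared BHLHE40 regions the share that were partners of members was 31.9% in decile 1 of BHLHE40 signal, 40.1% in decile 2 and 9.55% in decile 10. Among shared GATA3 regions the members' share went from 12.0% in decile 1 of GATA3 signal to 31.1% in decile 8 and 20.7% in decile 10. The 2 signals were weakly related across members (Spearman's rho 0.301 over 3196 regions, which share the same samples), much as in shared regions with H3K27ac (0.309 over 10927).

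**Figure D2:**
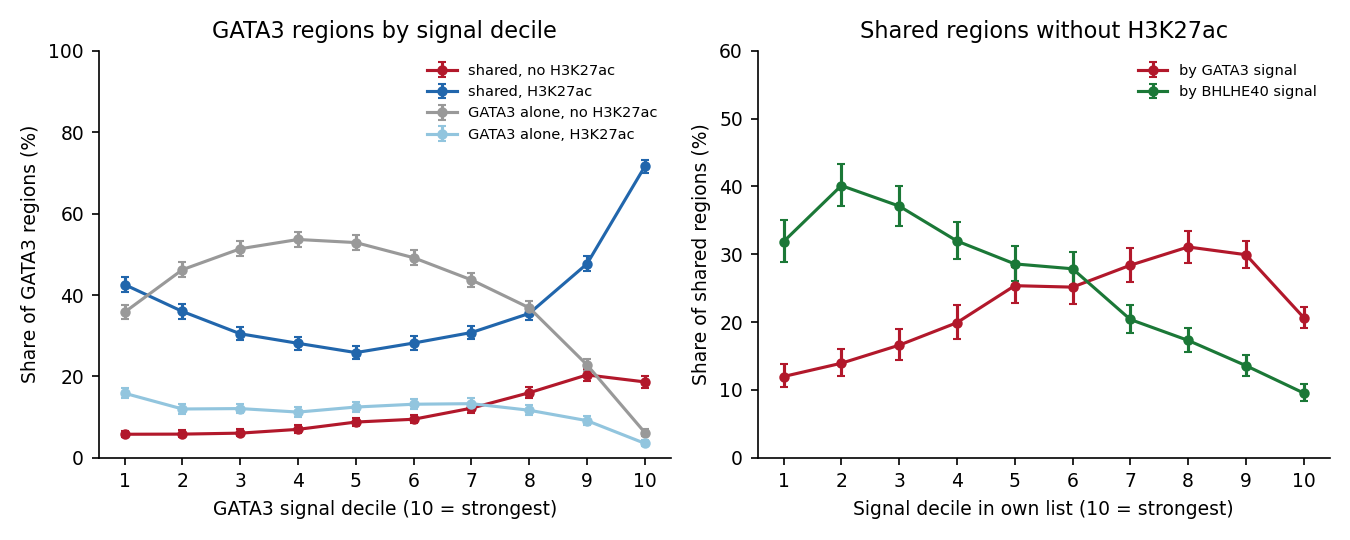
Left, share of GATA3 regions in each of 4 classes (y axis, percent) by decile of GATA3 signal (x axis). Right, share of shared GATA3 regions that were members by decile of GATA3 signal, and share of shared BHLHE40 regions that were partners of members by decile of BHLHE40 signal. Error bars are Wilson intervals, and a partner may itself overlap H3K27ac. On the right the GATA3 curve climbs from 12.0% to 31.1% before it drops to 20.7%, whereas the BHLHE40 curve rises from 31.9% in decile 1 to 40.1% in decile 2 and ends at 9.55%.

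In most members the summits of the factors lay close together. Median width was 604 bp for members, 828 bp for shared regions with H3K27ac, 459 bp for GATA3 regions with neither and 596 bp for all GATA3 regions, and the median BHLHE40 partner was 520 bp wide against 887 bp. The GATA3 and BHLHE40 summits were a median of 25 bp apart (quartiles 11 and 50 bp) in members and 39 bp apart (quartiles 15 and 111 bp) in shared regions with H3K27ac. The difference was widest at gene boundaries, where the medians were 38 bp and 83 bp; they were 25 bp and 29 bp inside gene records and 23 bp and 28 bp outside them. They were within 10 bp of each other in 24.7% of members and within 100 bp in 89.3%, against 17.9% and 73.5% with H3K27ac. Narrower regions leave less room for distant summits, and the part of width in this difference was not tested.

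A small share of members overlapped wide BHLHE40 regions and looked different. Of the members, 105 (3.29%) had a BHLHE40 partner of at least 2000 bp, against 936 (8.57%) of shared regions with H3K27ac. The median distance between summits was 1734 bp in these 105 and the median GATA3 signal was 9.13, compared with 24.5 bp and 17.9 for the 1498 members with a partner of 500 bp to under 1000 bp. The partner itself overlapped H3K27ac, outside the GATA3 region, in 83.8% of the 105 and in 4.61% of the 1498. In all, 216 of 3185 partner regions (6.78%) overlapped H3K27ac in this way.

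These 105 members had 90 distinct partners, of which 3 are described, from the strongest BHLHE40 partners and the CD69 locus. HSPA5, the endoplasmic reticulum chaperone BiP, had 3 members inside 1 BHLHE40 region (chr9:125233667-125242218, BHLHE40 signal 70.5), with GATA3 signals of 8.55, 6.60 and 2.33. The BHLHE40 region at DUSP2, a phosphatase of MAP kinases induced in activated T cells, held 2 members (chr2:96138664-96147470, BHLHE40 signal 103, GATA3 signals 7.26 and 6.69). At CD69, an early activation receptor, 2 members (GATA3 signals 9.17 and 7.33) lay in the BHLHE40 region chr12:9749918-9762220, whose summit was 7760 and 6843 bp away. In all 3 genes the GATA3 regions were below the GATA3 list's median signal of 11.2 while the BHLHE40 region was well above its partners' median of 8.95. Not all of the 105 were weak. A member in the T-cell receptor beta locus TRB, in a wide partner of BHLHE40 signal 103, had GATA3 signal 39.7. The highest GATA3 signal among the 105 was 78.3.

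Most members had H3K27ac nearby on the chromosome but outside the region. The median gap to the nearest H3K27ac region was 3266 bp (quartiles 1163 and 11346 bp) for members and 4586 bp for GATA3 regions with neither mark nor BHLHE40. H3K27ac lay within 1 kb of 717 members (22.4%, interval 21.0% to 23.9%) and of 17.3% of the latter class, and within 10 kb of 73.3% and 67.7%. Flanking on both sides within 1 kb was seen at 33 members (1.03%). Counting strong H3K27ac regions alone, the median gap grew to 15487 bp and 302 members (9.45%) had one within 1 kb.

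**Figure D3:**
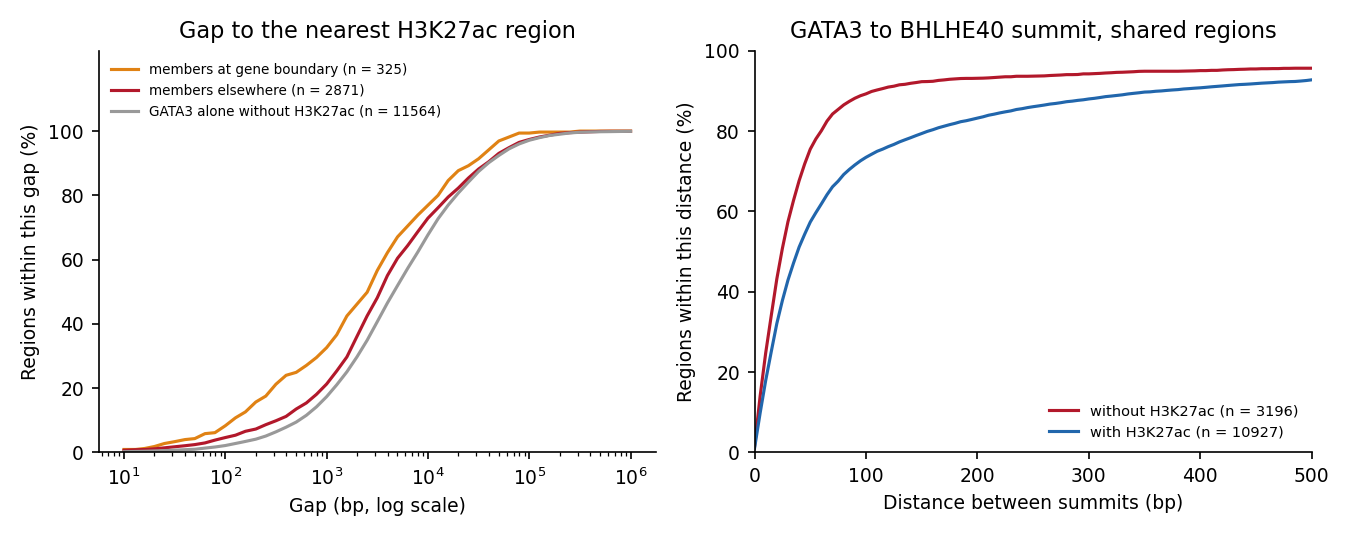
Left, cumulative share of regions (y axis, percent) by gap to the nearest H3K27ac region (x axis, bp, log scale) for members at a gene boundary, members elsewhere and GATA3 regions with neither; right, cumulative share of shared regions by distance between GATA3 and BHLHE40 summits (bp). On the left the gene-boundary curve runs above the others at short gaps, and on the right members reach 89.3% within 100 bp against 73.5% for shared regions with H3K27ac.

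Few regions lay at the edge of the H3K27ac rule. The 4 closest members touched an H3K27ac region with no base between (gap 0 bp): they lay in CPM (chr12:68888126-68888649, GATA3 signal 24.7), beside a non-coding record on chromosome 3 (chr3:187926596-187926954, 9.13), in NDST3 (chr4:118075223-118075871, 28.2) and in a non-coding record on chromosome 8 (chr8:58744743-58745488, 33.4). The 3 regions that missed membership by the least overlapped H3K27ac by 1 bp each, in NSMCE1-DT (11.9), beside PHKB (18.4) and in RUNX1 (8.93). In all, 160 members (5.01%) had H3K27ac within 100 bp. By gap, the members' median GATA3 signal was 13.8 within 100 bp and 13.0 between 100 and 500 bp, and 19.0 for the 548 members more than 20000 bp away.

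The members were mostly distal to gene boundaries. A summit within 1 kb of an end of a gene record was seen for 325 members (10.2%, interval 9.17% to 11.3%), against 35.2% of shared regions with H3K27ac, 6.67% of GATA3 regions with neither, and 24.3% of the 3066 BHLHE40 regions with neither GATA3 nor H3K27ac. Another 1934 members (60.5%) lay inside a gene record away from its ends and 937 (29.3%) outside gene records. The promoter table holds no start sites on chromosome 8. With its start sites, 132 of 3034 members (4.35%) were within 1 kb of a start, against 29.5% of shared regions with H3K27ac. The 325 boundary members had a median GATA3 signal of 12.3 and summits 38 bp apart, against 16.7 and 25 bp for members inside genes. Boundary members also had H3K27ac nearer: 32.6% within 1 kb, compared with 23.2% inside genes and 17.3% outside them.

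**Figure D4:**
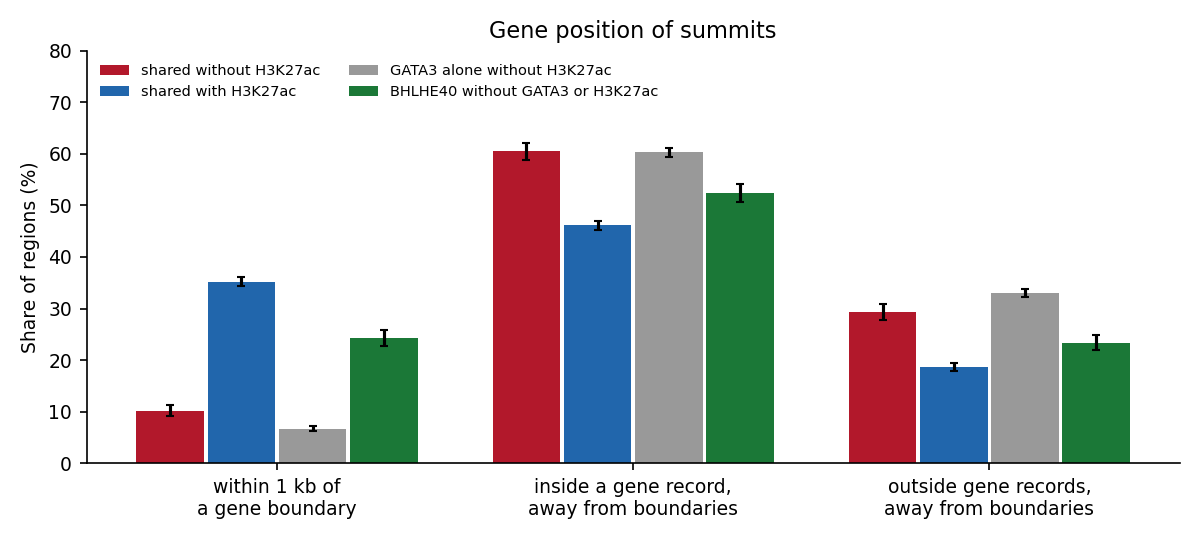
Share of regions (y axis, percent, bars from 0, 95% Wilson intervals) in each of 3 gene positions (x axis) for members, shared regions with H3K27ac, GATA3 regions with neither and BHLHE40 regions with neither. Members reach 10.2% at gene boundaries, between the 6.67% of GATA3 regions with neither and the 35.2% of shared regions with H3K27ac.

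The 15 strongest members lay more than 1 kb from any start site of the promoter table where one was measured, and several were in or beside non-coding genes. The highest GATA3 signal, 234 at rank 7 of the GATA3 list, was at chr8:65955032-65956486, 4152 bp from a non-coding record, with BHLHE40 signal 107 (rank 30) and H3K27ac 2269 bp away. A member in the primary-transcript gene of miR-221 and miR-222, MIR222HG (chrX:45756139-45757027), had GATA3 signal 130 with H3K27ac 907 bp away. A member 16596 bp from KLF2-DT, a non-coding gene beside the T-cell quiescence factor KLF2 (chr19:16266306-16267261), had GATA3 signal 128 with summits 35 bp apart.

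Others in the top 15 lay in KIF13B, a kinesin motor (chr8:29114625-29115650, GATA3 signal 150, H3K27ac 20624 bp away), in TMEM62 (chr15:43151523-43152172, 114), in PPP2R2D, a phosphatase subunit (chr10:131903160-131904211, 111), and in PPP1R3F (chrX:49273160-49273971, 106). Between genes, members near KCNK9 (chr8:139340654-139341367, 172), C18orf63 (chr18:74373140-74373969, 155) and RNF182 (chr6:13908836-13909500, 133) had gaps to H3K27ac of 11448, 13685 and 5573 bp. Among these 15, the summits were within 45 bp of each other in 14, and the exception was a member near GASAL1 at 310 bp. The lowest BHLHE40 signal of the 15 was 5.03, near CIT (chr12:119901867-119902649), where the GATA3 signal was 118.

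Some of the members with the strongest BHLHE40 partners had aligned summits. In MAD1L1, a spindle-checkpoint gene (chr7:1961444-1962564), GATA3 signal was 66.1 and BHLHE40 signal 80.2, with summits 9 bp apart and H3K27ac 20504 bp away. In CRTAC1 (chr10:97969324-97970054) the signals were 82.0 and 79.8, with summits 8 bp apart. A member in the T-cell receptor beta locus TRB (chr7:142810891-142811630, GATA3 signal 39.7) instead lay 6354 bp from the summit of its wide partner, BHLHE40 signal 103.

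The 10 gene records with most members were chosen by that count, so their shares are a description beside the 11.0% of all GATA3 regions that were members. BACH2, a repressor that restrains effector differentiation in lymphocytes (chr6:89926528-90296843), held 9 members of 38 GATA3 regions, with GATA3 signals from 2.45 to 35.0 (median 6.45). The long non-coding gene CASC15 held 8 of 60, CHST11, a chondroitin sulfotransferase, 8 of 35, and ARID5B, a chromatin regulator linked to leukaemia, 7 of 27. CDK6, a cell-cycle kinase, held 6 of 46 and RUNX1, a core haematopoietic factor, 6 of 27. ANKRD31 and MIR181A1HG, the host gene of miR-181a and miR-181b, each held 5 of 12. VAV3, an exchange factor of receptor signalling, held 4 of 34, and the long non-coding gene BALR6 held 4 of 27. In all, 22 gene records held at least 4 members, so VAV3 and BALR6 tie with records left out here, among them RUNX2 and RORA. The share was 41.7% in ANKRD31 and MIR181A1HG and 22.2% to 25.9% in BACH2, CHST11, ARID5B and RUNX1. It was near the overall share in VAV3 (11.8%), CDK6 (13.0%), CASC15 (13.3%) and BALR6 (14.8%). BACH2's median GATA3 signal was below that of all members (16.3), while the single strongest member in these genes, in CHST11 (chr12:104732940-104734181), reached 90.3.

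**Figure D5:**
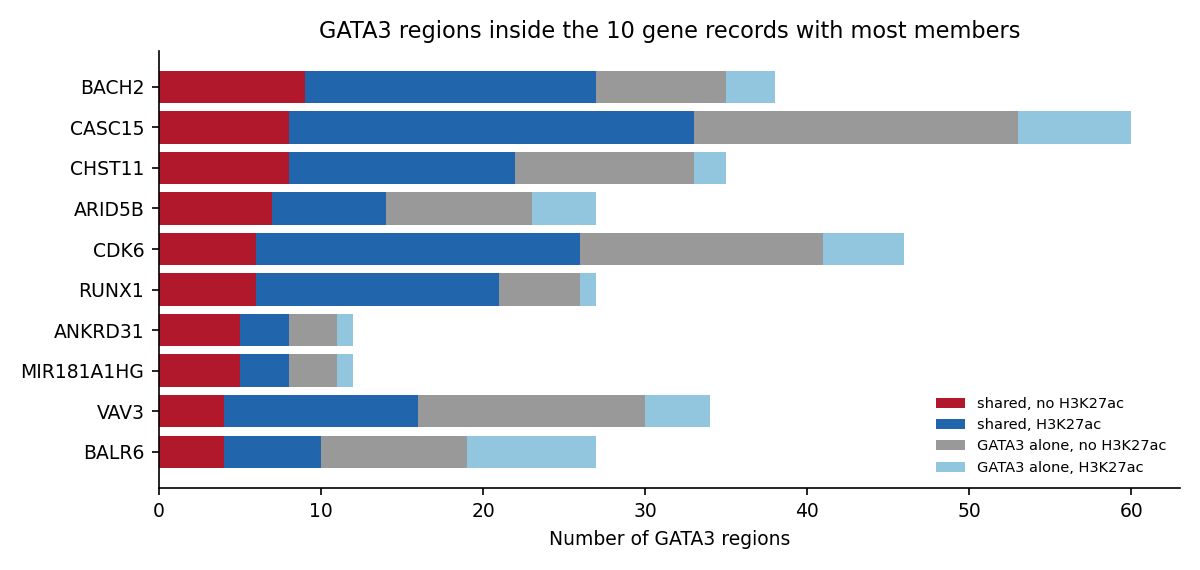
Number of GATA3 regions (x axis) inside each of the 10 gene records with most members (y axis), stacked by class. VAV3 and BALR6, with 4 members each, tie with records not shown. BACH2 holds 9 members of 38 GATA3 regions, and ANKRD31 and MIR181A1HG hold 5 of 12 each.

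Most members had no other member within 50 kb, but other GATA3 regions could lie between them. Joined wherever the gap to the next was under 50 kb, 2371 members stood alone, 291 pairs formed and 70 runs held 3 or more. Pairs and runs held 823 members. How many would stand alone from their spacing on the chromosomes was not tested. The longest run, 7 members over 129280 bp in CHST11, also held 6 shared regions with H3K27ac, and the next, 6 members in CASC15, held 12. All classes counted, these 2 runs held 22 and 29 GATA3 regions. In MIR181A1HG, 5 members spanned 86278 bp with 1 shared region with H3K27ac among them. A run of 5 members at RB1 and RCBTB2, the tumour suppressor and its neighbour, had gaps to H3K27ac of 1663 to 4207 bp.

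T-cell genes had members nearby more often than protein-coding genes at large, counted per gene. For this and the following lists, the part of the number of GATA3 regions of all classes at a gene was not tested. Of all 20033 protein-coding gene records, 10.1% had a member inside or within 10 kb and 7.14% had one inside. Within the 10% of longest records, 29.0% had one inside or within 10 kb. Among T-cell receptor and signalling genes 10 of 21 had one, with a median record length of 33890 bp. Shared regions with H3K27ac lay inside 13 of the 21 genes, and members inside 6. The former class is larger, 10927 regions against 3196, and the part of class size in this difference was not tested. The strongest member was 2420 bp from ZAP70, the kinase that binds phosphorylated receptor chains (chr2:97710752-97711756, GATA3 signal 70.8, BHLHE40 signal 9.75, H3K27ac 1285 bp away). A member 4080 bp from CD3D, a receptor subunit (chr11:118334609-118335090), had GATA3 signal 32.4 with summits 8 bp apart. PTPRC, the phosphatase CD45, had a member 4607 bp away with GATA3 signal 28.1, and PRKCQ, the kinase of the immune synapse, had 3, the highest at 21.1. The other genes with a member were CD8A, CD8B, CD3G, FYN, LCP2 and THEMIS. Of the GATA3 regions inside the record, members were 3 of 16 in PRKCQ, 1 of 14 in PTPRC and 1 of 9 in FYN. They were 1 of 8 in THEMIS, 1 of 7 in LCP2 and 1 of 3 in CD8B. Over all GATA3 regions the share was 11.0%.

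Among T-cell transcription factors 13 of 27 had a member, with a median record length of 101647 bp that is closer to the long genes. Here too shared regions with H3K27ac, the larger class, lay inside more genes, 21 of the 27, with members inside 11. RUNX1 held the 6 members already counted. RUNX2 held 4 members, the highest at 38.0 (chr6:45439773-45440642), and IKZF1, the Ikaros factor, held 2, the higher at 34.3 (chr7:50346743-50347577). NFATC2, a calcium-responsive factor, held 1 (chr20:51402082-51402890, GATA3 signal 34.5), and H3K27ac was 28581 bp away. LEF1, TCF12, TOX, TOX2, IKZF2, ETS1, RUNX3, MYB and ID2 each had 1 or 2.

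The 6 genes of the type 2 cytokine locus, which GATA3 is known to open in T helper 2 cells, had members near 5. Of all protein-coding records, 10.1% had a member inside or within 10 kb. A member inside the IL5 record (chr5:132549487-132550158, GATA3 signal 20.0, summits 12 bp apart) had H3K27ac 6406 bp away. A member inside KIF3A and near IL4 (chr5:132691984-132692757) had GATA3 signal 7.77, one in RAD50 (chr5:132598824-132599197) 7.01, and one near IRF1 (chr5:132479259-132480067) 7.50. The factor summits lay 311 bp apart at KIF3A, 67 bp at RAD50 and 2151 bp at IRF1. With summits at most 100 bp apart, 2 of the 6 genes had a member near. The IL5 member was thus the one above the list's median signal. These genes are neighbours, so 1 member can count for several.

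Activation genes had members near 8 of 28 (28.6%), against 10.1% of all protein-coding records, and the genes differed in how. A member lay inside 2 of the 28, and 7.14% of all protein-coding records had one inside. With summits at most 100 bp apart, 5 of the 28 had a member near. NFKB1, a subunit of NF-κB, held 2 members with GATA3 signals of 32.1 and 16.0 and narrow partners. A member near NR4A3, an immediate-early nuclear receptor, had a GATA3 signal of 18.8. Members near CD69, DUSP2, EGR2, JUN, IL2RA and the chemokine gene XCL2 had GATA3 signals of at most 9.17. E-box clock genes had members near 3 of 18 (16.7%), against the same 10.1%. RORA held 4, the highest at 32.8 (chr15:60585709-60586533), CLOCK had 1 nearby at 16.9 and BHLHE40 had 2 nearby.

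Lists of genes of other lineages came near the background. Erythroid and mast-cell GATA genes had members at 2 of 20, B-cell and myeloid genes at 2 of 18, and HOX and other developmental factors at 2 of 25. Those at HDC, the histamine-forming enzyme (chr15:50257918-50258581, GATA3 signal 44.1), at GATA2 (31.8) and at EBF1, a B-cell factor (chr5:158856800-158857384, 70.0, H3K27ac 23103 bp away), were strong all the same. Long neuronal adhesion and synaptic genes had members at 5 of 25, below the 29.0% of the 10% longest records, and the strongest was in DPP10 (chr2:115057413-115058368, 74.0). The lists are short and were chosen with earlier results known, so the counts are descriptions.

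At the genes of the 2 factors themselves the counts of members are small. Within 50 kb of BHLHE40 were 4 members of 9 GATA3 regions, the strongest at chr3:4994191-4994800 (GATA3 signal 21.7, BHLHE40 signal 5.25, 9113 bp from the gene), and the others at 14.8, 13.1 and 10.5. The last of these lay inside the gene, 485 bp from a start site, in a BHLHE40 region of signal 38.5 whose summit was 1296 bp away. Within 50 kb of GATA3 there were 0 members of 6 GATA3 regions, and of TAL1, a leukaemia factor, 0 of 5. Over all GATA3 regions the share of members was 11.0%, so 0 of so few regions does not set these 2 loci apart. Around CD69 there were 3 of 11.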

How the data were processed

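ChIP-seq of stimulated Jurkat cells was read from 3 deposited lists of enriched regions in narrowPeak layout. Per the submitters' processing notes, the tools included MACS2 and bcl2fastq 2.20 and the build was hg38; the aligner is not given in the sources used here. The GATA3 and BHLHE40 lists each summarise 2 samples at an irreproducible discovery rate of 0.05, per the deposited list names, and the name of the H3K27ac list calls it pooled. The authors' score (540 to 1000 in the factor lists), signal value and −log10 q-value per region are used as deposited, within 1 list. An irreproducibility threshold keeps weak but repeatable regions, whereas the pooled list of 113570 H3K27ac regions holds many weak ones, and what the signal value is relative to is not stated.

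Members were GATA3 lines overlapping BHLHE40 by at least 1 bp and H3K27ac by none; where several BHLHE40 regions overlapped, the one with the nearest summit was used. Gene positions came from 59675 RefSeq records (GRCh38.p14), whose ends are called boundaries because the table gives no strand, and start sites and sequence from its 34943 promoter windows. Planned motif searches around summits were replaced by these windows, since genome sequence was not used here. Named members followed a rule: the 15 with the highest GATA3 signal, the 10 with the highest BHLHE40 partner, the 10 genes with most members, the 5 longest runs, up to 4 per gene list, and the loci of GATA3, BHLHE40, TAL1 and CD69. Members and lists were chosen with earlier results of these data known, and 1 listed gene is not reported here and was left out of its list. Intervals are 95% Wilson intervals. No test was run, since no list holds a value per sample. Alternatives changed the score threshold, the overlap, the H3K27ac regions that count, distances, gene records and motifs. The overlap and gap functions were tested on simulated data. Software was matplotlib 3.10.9, scipy 1.17.1, pandas 2.3.3 and numpy 2.4.6 under Python 3.11.15.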

Additional observations from a re-analysis of the deposited data

How the results depend on the processing

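Of 82 alternatives to the 10 main results, 51 stayed within the main value's interval or, for counts, within 1.5 times, and 31 did not; for the gene lists 63 of 81 stayed and 18 did not. The cause was not tested unless the alternative's construction shows it. A score of at least 830 in both factor lists left 2068 members, with a median GATA3 signal of 19.6, a median BHLHE40 signal of 10.6, summits 22 bp apart and a GATA motif in 40.8% of windows. Summits at most 100 bp apart gave a GATA3 signal of 17.3, summits 21 bp apart by construction, H3K27ac within 1 kb of 19.9% and 8.38% at a gene boundary. Counting only H3K27ac of −log10 q of at least 5 gave 5604 members, near 3125 genes, with a BHLHE40 signal of 9.34 and H3K27ac within 1 kb of 9.14%. Without H3K27ac within 1 kb the GATA3 signal was 16.8, the boundary share 8.83% and the GATA motif share 45.1%, and the share within 1 kb is then 0 by construction. With a partner free of H3K27ac the values were 16.9, 8.56% and 41.9%, with H3K27ac within 1 kb of 17.7%. The boundary share was 6.20% at 500 bp, 17.1% at 2000 bp, 4.10% with protein-coding records and 4.35% with start sites, the last added after seeing the data; the share inside a gene was 51.6% with protein-coding records. H3K27ac lay within 500 bp of 14.6% of members and within 5000 bp of 61.1%. Within 50 kb, 3766 genes had a member. GATA alone was in 60.4% of windows and CANNTG in 57.4%, and windows that hold the summit, also added after seeing the data, had the GATA motif in 44.4%. Searches in 100 bp around the summit or in the whole region were not run, because genome sequence was not used here. No paired analysis was possible because the lists give no per-sample values, and leaving out a replicate was not run for the same reason. The unknown depth limits every call of a missing H3K27ac region: whether members carry H3K27ac below the listing threshold was not tested.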

Other observations

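Members made up a similar share of GATA3 regions along the genome, from 9.17% on chromosome 17 to 12.8% on chromosome X, and 5 members lay on chromosome Y or unplaced scaffolds. Of the shared regions, 16.4% on chromosome 17 and 28.6% on chromosome X lacked H3K27ac.

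Promoters of 4 further genes that overlapped a member had H3K27ac at very different distances. At EDN1, which encodes the vasoactive peptide endothelin-1, the member had a GATA3 signal of 12.2 with H3K27ac 34347 bp away, and at CLDN2, a tight-junction protein, 13.2 with H3K27ac 189405 bp away. At IL26, a T-cell cytokine, the GATA3 and BHLHE40 summits coincided (0 bp), with a GATA3 signal of 15.5 and H3K27ac 2135 bp away. At ID2, an inhibitor of helix-loop-helix factors, the GATA3 signal was 7.96 and H3K27ac lay 283 bp away. These genes were chosen after their values were seen.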
